A study of Caenorhabditis elegans with 12 samples.

Results

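The genes described here are the protein-coding *C. elegans* genes whose symbol begins with *msp*, *ssp*, *msd* or *nspd* and continues with a number. Of 20447 protein-coding genes in the tables, 57 met this rule. They comprised 31 *msp* genes (major sperm protein), 12 *ssp* genes (sperm-specific family, class P), 4 *msd* genes (major sperm protein domain) and 10 *nspd* genes (nematode-specific peptide family, group D). The symbol table gave *msd-1* and *ssp-9* to 2 genes each, and the RefSeq symbols *msd-3* and *ssp-11* were used for the second gene.

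Major sperm protein is the cytoskeletal protein of nematode sperm, which crawl without actin-based motility. Released from sperm, it also signals to oocytes to resume meiosis and to the gonad sheath to contract. In hermaphrodites the germline makes sperm first and then switches to oocytes, and the *msp* genes are transcribed in spermatocytes before that switch. The *ssp* and *msd* genes encode small proteins related to the MSP domain.

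The study captured single mRNAs with their bound factors out of crosslinked lysates of young adult worms by antisense probes (vIPR). The 7 elutions were *gld-1::gfp* pulldowns of strain BS1080 (genotype *gld-1::gfp*) after PAR-XL, PFA-XL and cXL, a *gfp::lin-41* pulldown of strain DG3913 (genotype *gfp::lin-41*) after cXL, and *gld-1*, *lin-41* and *alg-1* pulldowns of the wild type strain N2 after cXL. The 4 inputs were lysates of BS1080 after PAR-XL and of BS1080, DG3913 and N2 after cXL, and 1 total RNA library came from BS1080. PAR-XL is UV crosslinking of worms fed 4-thiouridine, cXL is UV crosslinking of unlabelled RNA, and PFA-XL is crosslinking with paraformaldehyde. The total RNA library is titled as PAR-XL but described as not crosslinked. Worms for PAR-XL were grown in liquid culture and the others on plates, with different culture times, so that culture, label, time and crosslink cannot be told apart between these libraries. Elutions received human carrier RNA, and the sequenced input and elution of PAR-XL stem from separate pulldowns. Worm rRNA was depleted from inputs and total RNA with RNase H. The cXL elutions were depleted of human rRNA by the same method, whereas a RiboMinus kit was used on the elutions after PFA-XL and PAR-XL, so that crosslink and depletion cannot be told apart among elutions. Probes were directed against *gfp* in BS1080 and DG3913. In BS1080 the fusion is expressed from a transgene.

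Each of the 12 libraries was the only one of its condition, so no difference had a replicate check and no test was made. Intervals given are 95% intervals of the counting error alone. Levels are TPM rescaled to 1000000 over worm transcripts, without rRNA and, in elutions, without the captured transcript. On that basis the elutions held 0.144 to 4.01 × 1000000 estimated counts, against 12.2 to 26.9 × 1000000 in inputs and total RNA. Human sequences took 66.6 to 96.5% of the TPM in elutions. The samples were whole worms, so fewer sperm and less RNA per sperm cannot be told apart.

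The 57 genes were short and clustered. Their annotated transcripts (WBcel235) were 216 to 573 nucleotides long with a median of 438, and 54 genes had a single exon. Of the 31 *msp* genes, 28 encoded proteins of 127 residues, while the *msd* proteins had 109, the *ssp* proteins 107 to 112 and the *nspd* proteins 70 to 73 residues. Chromosome IV carried 31 of the genes and chromosome II 15, followed by chromosome I with 7 and chromosomes III and V with 2 each. None lay on the X chromosome, and 41 had another of the 57 within 20 kb. All *msp* genes lay on chromosomes II (13) and IV (18). Runs of neighbours, delimited after the positions had been seen, spanned chr II 4785861 to 5810342 (15 genes), chr IV 4994325 to 5316944 (13 genes) and chr IV 9688982 to 10738658 (18 genes). The last of these supplied 35.2 to 43.96% of the summed level in inputs and total RNA, against 26.4 to 30.3% for the shorter chromosome IV run and 18.6 to 28.4% for the chromosome II run.

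Sperm family transcripts were abundant in every input. Together the 57 genes reached 10383 TPM in the PAR-XL input, 11308 TPM in total RNA, 6714 TPM in the BS1080 cXL input, 4546 TPM in the DG3913 cXL input and 4086 TPM in the N2 cXL input. This was 1.04, 1.13, 0.671, 0.455 and 0.409% of the worm TPM, in the same order. The *msp* genes made up most of it, with 3401 to 8208 TPM, whereas the *ssp* genes summed to 297 to 863, the *msd* genes to 168 to 706 and the *nspd* genes to 221 to 1530 TPM. Among the 1000 protein-coding genes of highest TPM were 32 of the 57 in total RNA, 31 in the PAR-XL input, 23 in the BS1080 cXL input, 11 in the DG3913 cXL input and 13 in the N2 cXL input. In elutions the sum lay far lower, between 429 and 1954 TPM.

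**Figure D1:**
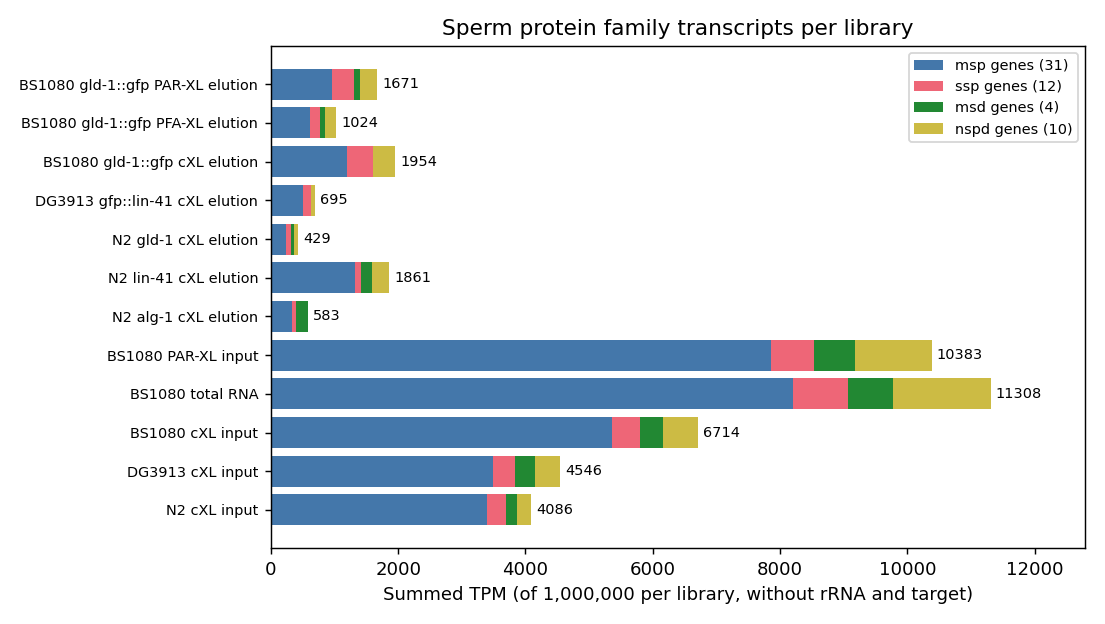
Summed TPM of the *msp*, *ssp*, *msd* and *nspd* genes (stacked bars) in the 7 elutions, 4 inputs and total RNA, of 1000000 per library. All elutions lie between 429 and 1954 TPM, and all inputs and total RNA between 4086 and 11308 TPM.

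Levels of single genes spanned several orders of magnitude. The *msp* gene of highest mean level was *msp-56* (chr IV 9841443 to 9841951, + strand), with 471 TPM in the PAR-XL input, 252 in total RNA, 1026 in the BS1080 cXL input, 233 in the DG3913 cXL input and 275 in the N2 cXL input. Next came *msp-53* (chr IV 5064641 to 5065153, - strand) with 319, 201, 549, 449 and 352 TPM in the same libraries. For *msp-59* (chr IV 5312690 to 5313146, - strand) these values were 525, 560, 215, 183 and 196 TPM. Thus *msp-56* and *msp-53* were highest in the BS1080 cXL input, while *msp-59* was highest in total RNA and the PAR-XL input. Likewise, *msp-81* had 549 and 558 TPM and *msp-76* 431 and 577 TPM in the PAR-XL input and total RNA, and the cXL inputs held 96.0 to 284 TPM of *msp-81* and 146 to 200 TPM of *msp-76*.

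Of the *ssp* genes, *ssp-11*, *ssp-9* and *ssp-10* had the highest levels, at 73.1 to 191, 64.7 to 146 and 52.1 to 204 TPM over inputs and total RNA. The *msd* gene *msd-1* ranged between 96.5 and 270 TPM and *msd-4* between 71.0 and 225 TPM. The *nspd* genes *nspd-1* and *nspd-10* ranged between 69.3 and 263 TPM and between 31.05 and 123 TPM. In each of these 7 genes the N2 or the DG3913 cXL input was lowest and total RNA highest, except that *msd-4* was slightly higher in the PAR-XL input (225 TPM) than in total RNA (223 TPM). At the other end, *msp-58* and *nspd-8* had 0 counts in all 12 libraries. The genes *msd-3* and *msp-74* were counted in total RNA (1.85 and 5.52 TPM) and had 0 counts in all 3 cXL inputs and all 7 elutions. In *ssp-32*, no input or total RNA exceeded 3.13 TPM.

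**Figure D2:**
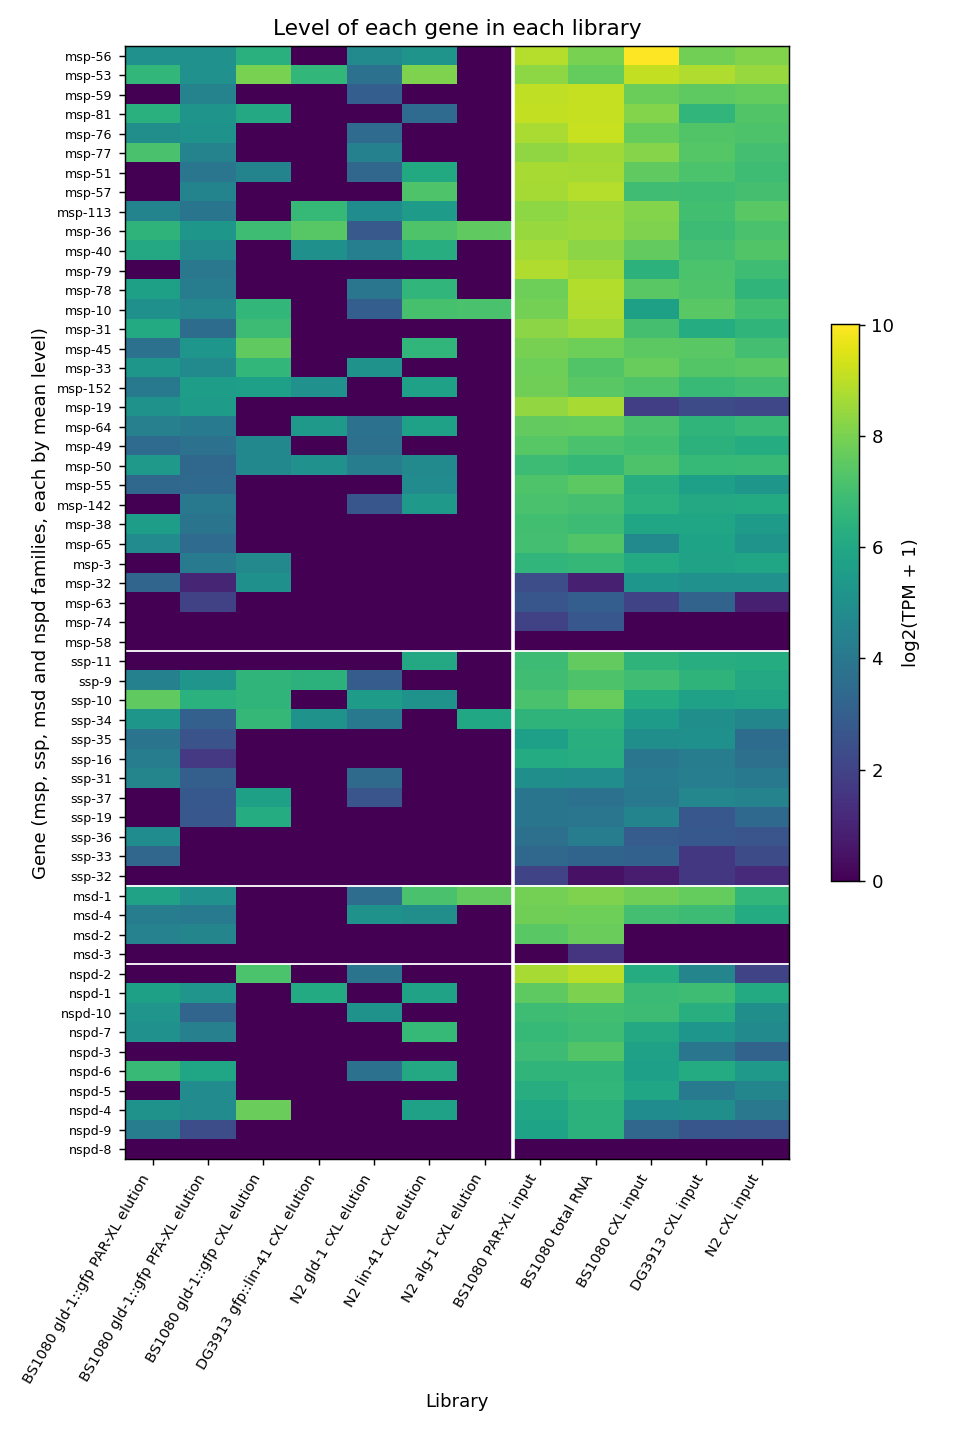
Level of each of the 57 genes (rows, by family and mean level) in each library (columns, elutions left of the white line, inputs and total RNA right of it), as log2(TPM + 1). Most genes are high in all inputs and low or at 0 in elutions, and *msp-58* and *nspd-8* are at 0 throughout.

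Reads were shared between copies. The counting tool divides a read that matches several transcripts among them, which leaves fractional counts. In the N2 input 28 of the 29 *msp* genes with counts had a value more than 0.01 away from a whole number, against 3 of 12 *ssp*, 0 of 3 *msd* and 0 of 9 *nspd* genes. Of these *msd* genes, *msd-2* had 2.16e-05 counts, a fraction within that margin, so 0 of 3 does not mean that no *msd* read was shared. Total RNA showed this for 29 of 30 *msp*, 6 of 12 *ssp*, 4 of 4 *msd* and 4 of 9 *nspd* genes. Summed over the family, the *ssp* and *msd* counts were whole (within 0.01) in all 5 libraries of inputs and total RNA, whereas the *msp* sum was not whole in any of them (6098.73 in the N2 input, for example). The value of a single copy with divided reads, in *msp* genes and in the other families, is therefore uncertain beyond its counting error.

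The levels assigned to several copies switched between library sets. Gene *msd-2* had 175 TPM (1158 counts) in the PAR-XL input and 211 TPM in total RNA, but at most 8.08e-05 counts in each cXL input, one of them from the same strain. Its family member *msd-1* had fractional counts in the PAR-XL input (1575.47) and total RNA (1400.1). In the cXL inputs of BS1080, DG3913 and N2 the *msd-1* counts were whole (726, 420 and 157). The *msd-2* values may therefore reflect how shared reads were divided, which was not tested. Gene *msp-19* had 336 TPM in the PAR-XL input and 415 TPM in total RNA, against 2.57, 4.03 and 3.33 TPM in the cXL inputs of BS1080, DG3913 and N2. Gene *msp-32* went the other way, with 4.18 TPM in the PAR-XL input and 0.839 TPM in total RNA, against 37.2, 31.9 and 32.5 TPM in those cXL inputs. Among inputs and total RNA the levels assigned to *msd-2*, *msp-19* and *msp-32*, picked after their values were seen, thus split by library set and not by strain. In the PFA-XL elution, from worms grown on plates, *msd-2* had 22.4 TPM (11.5 counts), *msp-19* 43.6 TPM (23.8 counts) and *msp-32* 1.03 TPM (1 count). The cXL elutions, of lower depth, each held less than 1 count of *msd-2* and of *msp-19*. What underlies the split was not tested. The gene *nspd-2* had 410 TPM in the PAR-XL input and 510 TPM in total RNA, but 72.9, 22.4 and 3.15 TPM in the cXL inputs of BS1080, DG3913 and N2, the last from 2 counts. Across the 57 genes the Pearson correlation of log2(TPM + 1) was 0.98 between PAR-XL input and total RNA, 0.81 between PAR-XL and cXL input of BS1080, 0.95 between BS1080 and N2 cXL inputs and 0.97 between DG3913 and N2 cXL inputs. Genes are not replicates, and copies that share reads are not independent points.

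**Figure D3:**
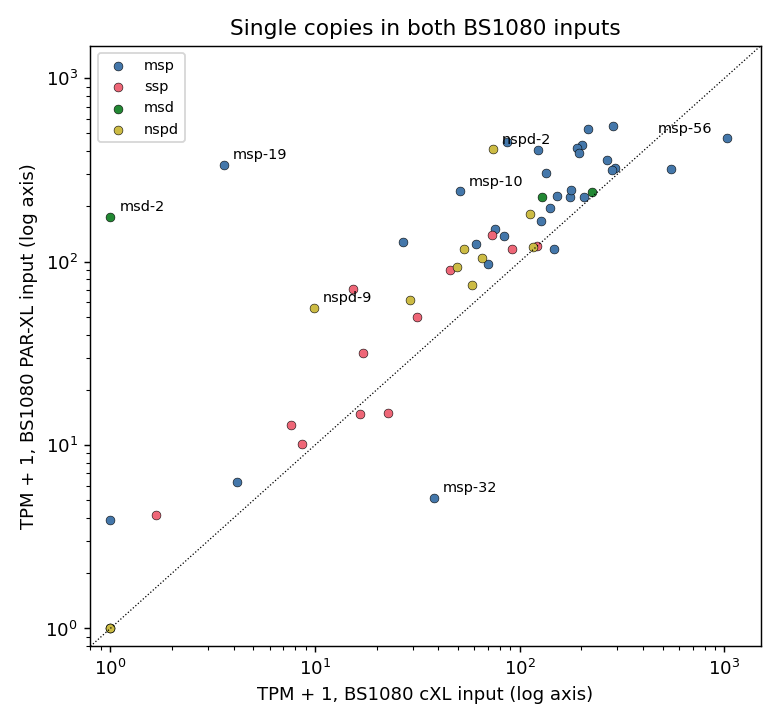
TPM + 1 of the 57 genes in the PAR-XL input (vertical, log axis) against the cXL input (horizontal, log axis) of BS1080, colored by family, with equality as a dotted line. Most points lie above the line, *msd-2* and *msp-19* are near 0 on the cXL side, and *msp-32* and *msp-56* lie below the line.

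In the lysate after PAR-XL these transcripts were close to their level in total RNA. The sum was 10383 TPM in the PAR-XL input and 11308 TPM in total RNA, a ratio of 0.918 (0.908 to 0.929), while the median gene had a ratio of 0.794. A gene was compared where it had at least 10 counts in the second library of a comparison and at least 10 were expected in the first at the same share. Of 51 such genes, 0 were above 2-fold and 1 was below 0.5-fold, against 0.830 and 13.4% of all protein-coding genes compared. The 1 gene was *msp-78*, with 223 TPM in the PAR-XL input and 466 TPM in total RNA. The highest ratio, 1.87, belonged to *msp-56*. By family the ratio was 0.958 for *msp*, 0.772 for *ssp*, 0.905 for *msd* and 0.792 for *nspd* genes.

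The 2 BS1080 inputs differed more. The sum was 10383 TPM after PAR-XL and 6714 TPM after cXL, a ratio of 1.55 (1.52 to 1.57) against 1.19 for the median gene. Of 49 genes compared, 15 were above 2-fold and 2 below 0.5-fold, against 25.5 and 3.77% of all genes. With 15 of 49 the share above 2-fold was thus near the background, and the short genes outside the families had 30.8% above 2-fold. In CPM, 31 of the 49 were above 2-fold, against 29.5% of all genes, so that this reading depends on the unit. The *nspd* genes had the highest family ratio, 2.17 (2.01 to 2.34), followed by *msd* with 1.82, *ssp* with 1.51 and *msp* with 1.47. The extremes were *nspd-9*, with 55.1 TPM after PAR-XL and 8.87 TPM after cXL, and *msp-32*, with 4.18 TPM after PAR-XL and 37.2 TPM after cXL.

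Sperm function genes and other sperm-specific families were higher after PAR-XL too, while vitellogenin and oocyte genes were lower. Of 21 sperm function genes compared, 13 were above 2-fold and 0 below 0.5-fold, with a median ratio of 2.46. Of 9 genes of other sperm-specific families, 5 were above 2-fold, with a median of 2.12. Of all genes, 25.5% were above 2-fold and 3.77% below 0.5-fold in this comparison. Oocyte and early embryo genes had a median ratio of 0.655 (23 compared, 0 above and 1 below). Eggshell gene *cpg-1* had 987 TPM after PAR-XL and 1530 TPM after cXL. The vitellogenin genes *vit-2* and *vit-6*, which encode yolk proteins made by the intestine, had 851 and 693 TPM after PAR-XL, against 5025 and 5322 TPM after cXL. Other lists did not follow this division. Of 13 intestine genes, 2 were above 2-fold and 6 below 0.5-fold, and *asp-1* had 5365 TPM after PAR-XL, against 3513 TPM after cXL. Regulators of sperm fate had a median ratio of 0.864 and body wall muscle genes 1.21. The part of these differences in the sperm family ratio was not tested.

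Between strains, BS1080 stood above N2 and DG3913 did not stand above the median gene. Both comparisons share the N2 input. The sum in cXL inputs was 6714 TPM in BS1080 and 4086 TPM in N2, a ratio of 1.64 (1.60 to 1.69), while the median gene had 0.991. In DG3913 it was 4546 TPM against the same 4086 TPM in N2, a ratio of 1.11 (1.08 to 1.15), while the median gene had 1.29. Of 44 genes compared, 8 were above 2-fold and 1 below 0.5-fold in BS1080, against 2.60 and 1.89% of all genes. In DG3913, 4 of 44 were above 2-fold and 0 below 0.5-fold, against 12.3 and 0.990% of all genes.

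In BS1080 the highest ratio was that of *msp-56*, with 1026 TPM in BS1080 and 275 TPM in N2, 3.73-fold (3.44 to 4.05). Similar was *nspd-10*, with 115 TPM in BS1080 and 31.05 TPM in N2. The lowest was *msp-10*, with 50.0 TPM in BS1080 and 124 TPM in N2. All 4 families had summed ratios above 1, namely 1.58 for *msp*, 1.49 for *ssp*, 2.10 for *msd* and 2.53 for *nspd* genes. In DG3913 the *msp* genes were level with N2 (1.03, 0.992 to 1.06), whereas *ssp* had 1.19, *msd* 1.89 and *nspd* 1.77. The highest ratio in DG3913 was *ssp-35*, with 31.8 TPM in DG3913 and 10.6 TPM in N2, and the lowest *ssp-19*, with 5.56 TPM in DG3913 and 9.71 TPM in N2.

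Sperm function genes had a median ratio of 1.40 in BS1080 against N2 (14 compared, 2 above 2-fold) and 1.22 in DG3913 against N2 (14 compared, 1 above 2-fold). Of all genes, 2.60% were above 2-fold in BS1080 and 12.3% in DG3913. The genes of other sperm-specific families had medians of 1.38 in BS1080 and 0.781 in DG3913, with 9 compared and 0 past 2-fold in either strain. Regulators of sperm fate, such as *tra-1* and the *fem* genes, had medians of 0.975 in BS1080 and 1.26 in DG3913. Oocyte genes had 0.882 in BS1080 and 1.09 in DG3913, body wall muscle genes 0.843 and 0.840, and intestine genes 0.766 and 1.11. Sperm lists were thus above the oocyte, muscle and intestine lists in BS1080 but not throughout in DG3913. No input had a second library to show how far these ratios vary between cultures.

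In each of the 6 elutions that had an input, the sperm family transcripts were below it. The sum was 1671 TPM in the *gld-1::gfp* PAR-XL elution and 10383 TPM in its input, a ratio of 0.161 (0.140 to 0.185). For *gld-1::gfp* cXL it was 1954 TPM in the elution and 6714 TPM in the input (0.291, 0.229 to 0.369), and for *gfp::lin-41* 695 TPM in the elution and 4546 TPM in the DG3913 input (0.153, 0.0987 to 0.237). Against the 4086 TPM of the N2 input, which the next 3 share, the *gld-1* elution held 429 TPM (0.105, 0.0838 to 0.131), the *lin-41* elution 1861 TPM (0.456, 0.357 to 0.580) and the *alg-1* elution 583 TPM (0.143, 0.0743 to 0.275). The median gene in these 6 comparisons had ratios of 0.828, 0.786, 0.948, 0.563, 1.07 and 0.499, in the order given. All 6 intervals thus lay below the ratio of the median gene.

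The counts behind these sums were small. The PAR-XL elution of *gld-1::gfp* held 194 counts of the 57 genes, where 2333 would have stood at the input share, and the cXL elution 67.8 where 283 would have stood. For *gfp::lin-41* it was 20.1 of 179, for *gld-1* 76.7 of 1242, for *lin-41* 66 of 197 and for *alg-1* 9 of 82.3. Therefore 18, 36, 47, 29, 31 and 51 of the 57 genes had 0 counts in these elutions, in the order given. The PFA-XL elution of *gld-1::gfp*, which had no input of its own, held 492 counts, or 1024 TPM, and 10 genes had 0 counts. Per 1000000 counts this was 123 (112 to 134, Wilson) in the PFA-XL elution and 204 (177 to 235, Wilson) in the PAR-XL elution.

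Of the single genes, 42 could be compared in the *gld-1::gfp* PAR-XL elution, and 40 of them were below 0.5-fold, against 33.0% of all genes. In the *gld-1* elution 31 of 32 were below 0.5-fold, against 45.0% of all genes. The *gld-1::gfp* cXL elution had 6 of 6 below (27.0% of all genes), the *gfp::lin-41* elution 2 of 2 (18.1%) and the *lin-41* elution 1 of 2 (18.7%). Short genes outside the families, described below, had higher shares below 0.5-fold than all genes. These were 54.7% in the PAR-XL and 74.1% in the cXL elution of *gld-1::gfp*. For *gld-1* the share was 63.5%, for *gfp::lin-41* 55.6% and for *lin-41* 65.2%. With 6, 2 and 2 genes compared, the cXL *gld-1::gfp*, *gfp::lin-41* and *lin-41* counts cannot be told apart from these shares. None of the compared genes was above 2-fold in these 5 comparisons, against 15.6, 6.72, 9.73, 10.9 and 19.5% of all genes, in the order given, and with 6, 2 and 2 genes compared a count of 0 shows little in the last 3. Genes with fewer expected counts could exceed it on few reads, such as *nspd-4* in the *gld-1::gfp* cXL elution with 209 TPM from 4 counts, against 28.2 TPM in the input. In the *alg-1* elution no gene of the families had enough expected counts to be compared.

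**Figure D4:**
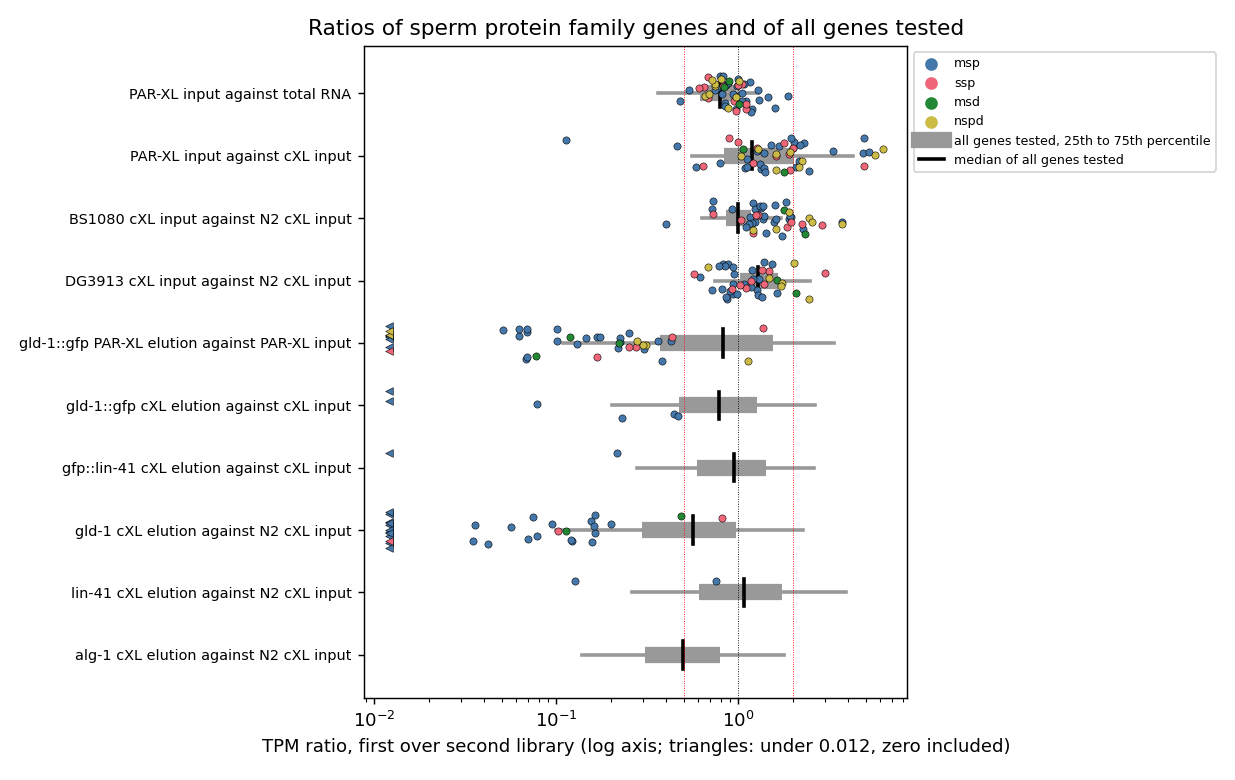
TPM ratio of the compared *msp*, *ssp*, *msd* and *nspd* genes (points) in 10 comparisons, first over second library on a log axis, with the 25th to 75th percentile (thick grey), the 5th to 95th percentile (thin grey) and the median (black) of all genes compared. In elutions nearly all points lie left of the median gene, and triangles at the left edge mark genes under 0.012, most of them with 0 counts.

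The *msp* genes had the lowest summed ratio of the 4 families in the *gld-1::gfp* PAR-XL and the *gld-1* elutions. In the *gld-1::gfp* PAR-XL elution their summed ratio was 0.123 (0.103 to 0.146), against 0.509 (0.366 to 0.706) for *ssp*, 0.143 (0.0790 to 0.258) for *msd* and 0.226 (0.147 to 0.347) for *nspd* genes. In the *gld-1* elution the *msp* ratio was 0.0707 (0.0533 to 0.0938), against 0.278 (0.164 to 0.474) for *ssp*, 0.270 for *msd* and 0.274 for *nspd* genes. The *msp* and *ssp* intervals did not overlap in either elution, but *ssp-10* held 19 of the 36 *ssp* counts in the first and 7 of 14 in the second. Without it the *ssp* ratio was 0.283 (0.176 to 0.456) in the *gld-1::gfp* PAR-XL elution, still apart from *msp*, and 0.154 (0.0729 to 0.326) in the *gld-1* elution, where the intervals overlapped. Also, the *msp* and *msd* intervals overlapped in the *gld-1::gfp* PAR-XL elution. For *lin-41*, *msp* genes had 0.388 (0.295 to 0.511), and the other families rested on 3 to 6 counts each.

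Among abundant copies, *msp-59* had 0 counts in the *gld-1::gfp* PAR-XL elution where its input share would have given 129, and *msp-79*, *msp-51* and *msp-57* had 0 where 103, 100.1 and 99.0 would have stood. A count of 0 allows up to 3 (one-sided). In that elution *msp-53* kept 96.7 TPM, against 319 TPM in the input (0.303, 0.189 to 0.486), and *msp-56* 32.5 TPM, against 471 TPM in the input (0.0689, 0.0303 to 0.157). The lowest ratio above 0 was that of *msp-45*, from 1 count (0.0509, 0.00717 to 0.362). The intervals of *msp-53* and *msp-56* did not overlap, and the division of shared reads adds an error that they do not cover.

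The highest ratios in both *gld-1* mRNA comparisons with many counts belonged to *ssp-10*. It had 190 TPM (19 counts) in the *gld-1::gfp* PAR-XL elution and 140 TPM in its input, a ratio of 1.36 (0.863 to 2.14), the highest of the 42. In the *gld-1* elution it had 45.6 TPM (7 counts) and in the N2 input 56.5 TPM (0.808, 0.373 to 1.75), the highest of the 32. Its level was 92.3 TPM in the *gld-1::gfp* cXL elution (3 counts) and 83.7 TPM in the PFA-XL elution (35 counts). The other gene above 1 in the PAR-XL elution was *nspd-6*, with 105 TPM (11 counts) in the elution and 92.9 TPM in the input (1.14, 0.625 to 2.06). Both intervals include 1. In the cXL elution of *gld-1::gfp* the highest ratio was *msp-53* (0.467, 0.272 to 0.803) and the lowest above 0 was *msp-56* (0.0780, 0.0294 to 0.207). For *lin-41* only these 2 genes had enough expected counts to be compared. There *msp-53* had 266 TPM in the elution and 352 TPM in the N2 input (0.756, 0.442 to 1.29). Gene *msp-56* had 34.9 TPM in the elution and 275 TPM in the N2 input (0.127, 0.0288 to 0.559). In the *gfp::lin-41* elution *msp-53* had 4 counts (0.216, 0.0810 to 0.577) and *msp-56* had 0 where 12.8 would have stood. Of 32 genes compared in the *gld-1* elution, 11 had 0 counts and *msp-38* less than 1.

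Short transcripts as a class were low in elutions. Protein-coding genes of up to 600 nucleotides outside the 4 families, a limit chosen after the values had been seen, had median ratios of 0.418 in the *gld-1::gfp* PAR-XL, 0.306 in the *gld-1::gfp* cXL, 0.412 in the *gfp::lin-41*, 0.323 in the *gld-1*, 0.376 in the *lin-41* and 0.151 in the *alg-1* comparison. In the *gld-1* comparison the medians were 0.477 for lengths above 600 and up to 1200, 0.583 above 1200 and up to 2400, and 0.723 above 2400 nucleotides. The ratio thus increased with length. The sperm families had medians of 0.138 in the *gld-1::gfp* PAR-XL and 0.0634 in the *gld-1* comparison, below those of the other short genes. With few genes compared, the family median was also lower for *gfp::lin-41* (0.108, 2 genes) and for *gld-1::gfp* after cXL (0.154, 6 genes). In the *lin-41* comparison the median of the 2 genes compared, 0.441, was above that of the short genes. For *alg-1* no family gene could be compared, so there was no median to set beside 0.151. The summed ratio of all 57 genes, a different measure, had an interval that included the short-gene median in some comparisons. These were *gld-1::gfp* after cXL (0.229 to 0.369), *lin-41* (0.357 to 0.580) and *alg-1* (0.0743 to 0.275). For *gld-1::gfp* PAR-XL (0.140 to 0.185), *gfp::lin-41* (0.0987 to 0.237) and *gld-1* (0.0838 to 0.131) the interval lay below that median. Between inputs, short genes had a median of 0.993 and the longest class 0.987 in BS1080 against N2. In the PAR-XL against cXL input comparison these medians were 1.35 and 1.01, and in DG3913 against N2 they were 1.43 and 1.27, so that there the ratio was lower in the longest class. The part of transcript length in the elution ratios was not tested.

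Longer sperm transcripts had less reduced sums. Sperm function genes, with a median length of 1302 nucleotides, had summed ratios of 0.817 (0.726 to 0.919) in the *gld-1::gfp* PAR-XL, 0.952 in the *gld-1::gfp* cXL, 1.09 in the *gfp::lin-41*, 0.833 in the *gld-1*, 1.14 in the *lin-41* and 0.834 in the *alg-1* comparison. Gene by gene, their median was 0.636 in the *gld-1::gfp* PAR-XL comparison, with 4 of 12 below 0.5-fold, near the 33.0% of all genes. In the *gld-1* comparison their median was 0.729, with 0 of 6 below, against 45.0% of all genes. Gene *zipt-7.1*, which encodes a zinc transporter needed to activate sperm, had 64.2 TPM in the *gld-1::gfp* PAR-XL elution and 38.1 TPM in its input. Gene *spe-15*, a myosin VI gene needed when spermatids form, had 13.8 TPM in that elution and 33.1 TPM in the input. For *spe-39*, which acts in vesicle formation in sperm, it was 38.3 TPM in the elution and 35.9 TPM in the input. Both *spe-39* and *zipt-7.1* had the highest mean levels of the list over inputs and total RNA, so they weigh much in its sums.

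The other sperm-specific families, with lengths of 908 to 1310 nucleotides, varied between genes. In the *gld-1::gfp* PAR-XL comparison 5 of 9 were below 0.5-fold and 1 above 2-fold, against 33.0 and 15.6% of all genes. Their median there was 0.442. In the *gld-1* comparison 5 of 9 were below and 0 above, with a median of 0.331. All genes had 45.0 and 6.72% there, so that the count below was near the background. For *lin-41* 3 of 3 were above 2-fold, against 19.5% of all genes. For *gld-1::gfp* cXL 1 of 3 and for *gfp::lin-41* 1 of 1 were below 0.5-fold, against 27.0 and 18.1% of all genes. Their summed ratios were 0.703 for *gld-1::gfp* PAR-XL, 0.710 for *gld-1* and 0.740 for *alg-1*. They were above 1 for *gld-1::gfp* cXL (1.30), *gfp::lin-41* (1.97) and *lin-41* (2.43). In the *gld-1::gfp* PAR-XL elution *sss-1* had 16.4 TPM, against 163 TPM in the input, whereas *ssq-1* had 145 TPM, against 71.5 TPM in the input. Gene *ssq-4* was level, with 123 TPM in the elution and 122 TPM in the input. The same order appeared for *lin-41*, where *sss-1* had 28.0 TPM in the elution and 47.2 TPM in the N2 input, *ssq-1* 224 TPM in the elution and 50.7 TPM in the N2 input, and *ssq-4* 205 TPM in the elution and 60.2 TPM in the N2 input. Body wall muscle genes, with a longer median length of 1571 nucleotides, had summed ratios between 0.171 and 0.591 in the 6 elution comparisons. The myosin gene *unc-54* had 163 TPM in the *gld-1::gfp* PAR-XL elution and 1095 TPM in its input. Intestine genes had summed ratios between 0.322 and 0.573 in 5 of these and 4.97 in the *gld-1* comparison. Most of that *gld-1* sum of 140427 TPM was *vit-6*. Gene by gene, 10 of 11 intestine genes were below 0.5-fold there and 1 above 2-fold, with a median of 0.198, against 45.0 and 6.72% of all genes. Oocyte and early embryo genes had median ratios between 0.478 and 1.07. In the *gld-1* elution *cpg-1* had 185434 TPM, against 1797 TPM in the N2 input, and *vit-6* 136383 TPM, against 7061 TPM in the N2 input. Since TPM is a share, levels this high leave less for all other transcripts of that elution.

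**Figure D5:**
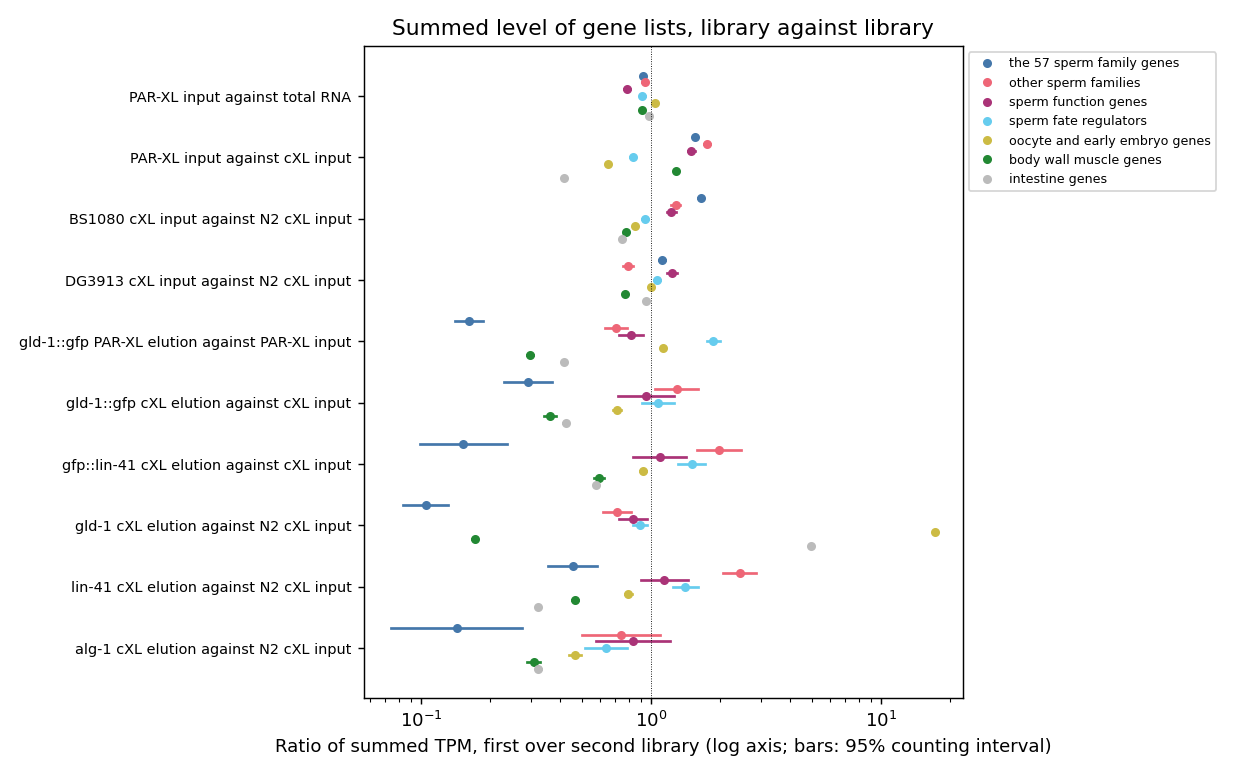
Ratio of summed TPM of the 57 sperm family genes and of 6 gene lists in 10 comparisons, first over second library on a log axis, with bars for the 95% counting interval. In the 6 elution comparisons the sperm family genes lie between 0.105 and 0.456, left of the sperm function genes at 0.817 to 1.14.

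A further 3 entries of the tables, F31C3.10, F31C3.14 and F31C3.16, lie within or next to the rRNA gene array of chromosome I without bearing that biotype. They held 12.0 to 31.1% of the TPM in elutions, against 0.0671 to 1.24% in inputs and total RNA. Without them the summed ratio was 0.228 in the *gld-1::gfp* PAR-XL and 0.422 in the *gld-1::gfp* cXL comparison. In unscaled shares of counts (CPM) the *gld-1::gfp* PAR-XL ratio was 0.0830, the *gld-1* ratio 0.0617 and the BS1080 to N2 ratio 2.14. The effective length that converts counts to TPM differed between libraries. Its median over *msp* genes was 235 nucleotides in the PAR-XL input, 142 in the PAR-XL elution, 170 in the BS1080 cXL input and 145 in the N2 cXL input.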

How the data were processed

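Whole young adult worms of 3 strains gave 12 RNA libraries, 1 per condition. Per the labels and the methods, the authors quantified single-end reads with kallisto (version 0.43.1) on *C. elegans* transcripts (WBcel235), with human transcripts added for elutions. The deposited files hold estimated counts and TPM per transcript. Near-identical copies share reads, which kallisto divides among them. Transcripts were summed per gene, entries of biotype rRNA and the elution's captured transcript were removed, and TPM was rescaled. Depth limits precision in elutions, and intervals cover counting error only (log-scale Poisson for ratios, Wilson for shares). The comparisons were PAR-XL input against total RNA, PAR-XL against cXL input, each transgenic strain against N2, and 6 elutions against inputs.

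The members and lists were chosen with earlier results of these data known. The genes planned for naming were the 5 *msp* genes and 3 genes each of the other families with the highest mean TPM over total RNA and inputs, the highest and lowest ratio in each comparison, and the 3 highest genes of each list. Not all of these list genes are named. Further genes, such as *msp-19*, *msp-79*, *nspd-4* and *nspd-6*, were named for their values. Names came from a symbol table and RefSeq. The 6 related pseudogenes were summed in only as an alternative. Other alternatives were CPM, a pseudocount of 1, a minimum of 30 expected counts, no minimum, 3 entries at the rRNA gene array left out and the target kept. On simulated libraries, 95 of 95 raised and 98 of 98 lowered genes were found at the depth of the BS1080 cXL input, with 120 false calls among 11673 genes. At the depth of the *gld-1* elution these were 98 of 98, 99 of 99 and 43 among 8038, and at that of the *alg-1* elution 99 of 99, 97 of 98 and 31 among 2449. The planted changes were well beyond 2-fold, and counts varied by counting error alone. Shared reads, differences in effective length and variation between libraries were not simulated. The simulation therefore checks the calculation and not how reliable single copies are in these libraries. Python 3.11.15 with pandas 2.3.3 and scipy 1.17.1 was used.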

Additional observations from a re-analysis of the deposited data

How the results depend on the processing

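No paired analysis was possible because each condition had 1 library. No sum of the 57 genes changed side of 1 under any alternative run, and summing in the pseudogenes or adding 1 to TPM moved nothing beyond its margin. With CPM in place of TPM the summed ratio was 0.818 for PAR-XL input against total RNA, 2.002 for PAR-XL against cXL input, 2.14 for BS1080 against N2, 0.0830 for the *gld-1::gfp* PAR-XL, 0.0617 for the *gld-1* and 0.335 for the *lin-41* elution, and the genes past 2-fold became 3, 32 and 19 in the first 3 of these (1, 17 and 9 with TPM). Without the 3 entries at the rRNA gene array the *gld-1::gfp* elution ratios were 0.228 (PAR-XL) and 0.422 (cXL). With the target kept, the ratio was 0.0814 for *gld-1::gfp* PAR-XL, 0.127 for *gld-1::gfp* cXL, 0.0713 for *gfp::lin-41*, 0.0734 for *gld-1* and 0.212 for *lin-41*, since the target then took part of the total. With at least 30 expected counts, genes past 2-fold were 4 for BS1080 against N2 (9 with 10 counts), 1 for DG3913 against N2 (4), 2 for *gld-1::gfp* cXL (6), 0 for *gfp::lin-41* (2), 16 for *gld-1* (31) and 0 for *lin-41* (1), because fewer genes were compared. Without that minimum they were 4 for PAR-XL input against total RNA, 50 for *alg-1*, 38 for *lin-41*, 48 for *gld-1*, 47 for *gfp::lin-41* and 45 for *gld-1::gfp* cXL. Many of these genes had 0 counts, as did 51 of the 57 in the *alg-1* elution. No share over all genes is given for these 2 settings of the minimum, so the counts cannot be set against a background. Leaving out *ssp-10*, chosen after its values were seen, gave *ssp* ratios of 0.283 in the *gld-1::gfp* PAR-XL and 0.154 in the *gld-1* elution. Elution depth (9 to 492 counts for all 57 genes), the single library per condition and the division of shared reads limit these values.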
